A study of Rattus norvegicus with 27 samples.

Results

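The heat shock and DnaJ chaperone genes were followed in 3 brain regions of diabetic and control rats. The members are all probes whose gene name on the array starts with Hsp (heat shock proteins, without the proteoglycan gene Hspg) or Dnaj. They are 84 probes for 54 genes, of 41012 probes and 35535 named genes in all. A filter kept 82 probes for 52 genes, those well above background on 2 or more of the 3 arrays of any group; the probes named Hspa1b and Dnajc5g did not pass, and the Hspa12a probe A_44_P457890, well above background on 14 of 27 arrays, passed by the smallest margin. Of the 82, 80 probes entered the comparisons in the striatum. The rule uses names and signal above background and no measured difference, though it was set with earlier results of these data known. Control animals were 10-week-old male Wistar rats. Goto-Kakizaki rats, a strain with spontaneous non-obese diabetes that was bred from Wistar rats and stood for type 2 diabetes, were males of 10 weeks. The model of type 1 diabetes was made by a single intravenous dose of 65 mg/kg streptozotocin, a toxin of the insulin-producing beta cells, given to 6-week-old male Wistar rats that were killed 4 weeks later. Hippocampus, prefrontal cortex and striatum came from the brains of 9 animals per group, pooled by 3, which gave 3 pools for each of 9 combinations and 27 arrays. Strain and diabetes cannot be told apart in Goto-Kakizaki rats, and the regions of a group share animals.

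Chaperones keep other proteins folded. Hsp70 proteins bind unfolded stretches in an ATP-driven cycle, DnaJ proteins (Hsp40) deliver clients and start ATP hydrolysis, and Hsp110 proteins exchange the nucleotide. Hsp90 matures kinases and steroid receptors, small heat shock proteins hold unfolded clients without ATP, and Hsp60 with Hsp10 folds proteins inside mitochondria. Many of these genes are active in every cell, whereas inducible members such as Hspa1a and Hspb1 respond to heat shock factor 1, which binds heat shock elements in promoters, and endoplasmic reticulum chaperones respond to the unfolded protein response through the ER stress element. In brain, DnaJ proteins also serve synaptic vesicles, where auxilin (Dnajc6) and Hspa8 strip clathrin coats.

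The promoters of the members differ in these elements, and some of the windows are shown because they hold the letters that were searched. RefSeq promoters of GRCr8, from 250 bases before to 50 bases after the start, matched 43 of the 54 genes. A heat shock element of 3 units was searched as GAANNTTCNNGAA or TTCNNGAANNTTC on both strands, 1 of 2 units as GAANNTTC or TTCNNGAA, and the ER stress element as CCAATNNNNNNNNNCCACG. The first was found in 5 member promoters (11.6%; Dnaja1, Hspa8, Hspd1, Hspe1 and Hsph1) against 0.798% of 33469 rat promoters of the same length. Elements of 2 units, which every element of 3 units also contains, were found in 15 member promoters (34.9%) against 15.9% of all. The ER stress element was found in 2 member promoters (4.65%; Hspa5 and Dnajc3) against 0.0657%. Capitals mark the matched elements in the following stretches, printed on the strand of the gene.
Hspa8, chr8:50080281-50080491, plus strand: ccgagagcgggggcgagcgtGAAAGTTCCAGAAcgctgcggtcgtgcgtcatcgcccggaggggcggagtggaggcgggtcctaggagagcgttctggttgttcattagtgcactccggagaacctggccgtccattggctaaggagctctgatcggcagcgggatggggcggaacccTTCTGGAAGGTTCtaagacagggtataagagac
Hsph1, chr12:10427312-10427364, plus strand: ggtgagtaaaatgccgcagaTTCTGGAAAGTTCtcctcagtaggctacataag
Hspe1, chr9:64084242-64084299, plus strand: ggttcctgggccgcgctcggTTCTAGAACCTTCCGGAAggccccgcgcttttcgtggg
Hspb1, chr12:26432383-26432450, minus strand: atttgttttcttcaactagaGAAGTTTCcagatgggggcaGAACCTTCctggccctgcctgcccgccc
Hspa2, chr6:100864358-100864405, plus strand: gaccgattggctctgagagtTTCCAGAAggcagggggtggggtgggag
Hspa5, chr3:38452953-38453011, plus strand: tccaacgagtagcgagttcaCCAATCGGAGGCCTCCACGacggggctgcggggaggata
Dnajc3, chr15:102432514-102432572, plus strand: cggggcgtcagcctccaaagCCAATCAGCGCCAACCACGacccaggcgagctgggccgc
Hspd1 and Hspe1 are divergent neighbours, so that the Hspe1 element is also that of Hspd1. A match is a description of letters and no measured site. No match was found for Hspa1a, Hspb3 or Dnajb13. Each matched gene was searched at 1 annotated start only, and 11 of the 54 genes had no window. The lack of a match therefore does not show that a gene has no such element.

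The results turn on a few probes, whose sequences are given as the array lists them because they define what was measured. Dnajb13 lies at chr1:164260716-164275172, Hspa1a at chr20:3859756-3863800, Hspb1 at chr12:26430640-26432301, Hspb3 at chr2:47028451-47029165 and Hspa2 at chr6:100864172-100866946 (GRCr8).
Dnajb13, A_44_P351621: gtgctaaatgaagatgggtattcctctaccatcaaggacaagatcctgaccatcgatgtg
Hspa1a, A_44_P109342: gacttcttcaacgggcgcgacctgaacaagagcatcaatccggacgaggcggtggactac
Hspa1a, A_44_P1042876, first 30 bases: ctcgtgggttttttatatattcaaattaag
Hspb1, A_44_P992908: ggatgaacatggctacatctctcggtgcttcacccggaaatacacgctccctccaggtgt
Hspa2, A_44_P309081: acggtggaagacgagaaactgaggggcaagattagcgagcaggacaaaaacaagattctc
Hspa1a has a near-identical copy, Hspa1b, and the probe named for that copy was not well above background on any array. Signal of the coding-sequence probe A_44_P109342 cannot be assigned to Hspa1a alone.

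Levels are log2 of the processed signal over the 75th percentile of the array, so that 0 is the 75th percentile, and differences are log2 fold changes from limma with adjusted p over all probes tested. A probe is called at an adjusted p under 0.05 and at least a 2-fold change. Slide and group cannot be told apart where the compared groups shared no slide. This holds for Goto-Kakizaki against control prefrontal cortex and for streptozotocin against control hippocampus and striatum. It also holds for all comparisons between the models, and for control hippocampus against control prefrontal cortex and striatum. Differences of the Goto-Kakizaki effect that involve the prefrontal cortex have the same limit. The summed level of 10 striatal medium spiny neuron markers was 210 to 361 in the striatal pools and at most 36.5 outside the striatum. That of 8 hippocampal neuron markers was 6.06 to 7.28 in control hippocampus, against at most 2.95 in control prefrontal cortex and 2.32 in control striatum. Among these 8, Spink8 ran the other way (-3.74 in control hippocampus, -2.49 in control striatum). Summed cortical neuron markers did not separate control prefrontal cortex (27.8 to 35.0) from control hippocampus (28.0 to 32.0). The striatal marker sum was uneven among the control pools of the prefrontal cortex (25.4, 12.9 and 36.5) and lay between 14.4 and 17.2 in the Goto-Kakizaki pools there. Its part in the prefrontal results was not tested. In tissue pools, fewer cells of a type and less RNA per cell cannot be told apart. The median SD of a member was 0.082 in the Goto-Kakizaki hippocampus and 0.292 in the Goto-Kakizaki striatum, where pool 2 stood apart.

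Members were first compared with controls in each model. In Goto-Kakizaki rats against controls, 1 of 82 member probes was called in hippocampus (1.92% of all probes), 0 of 82 in prefrontal cortex (2.49%) and 3 of 80 in striatum (3.09%). In streptozotocin-treated rats, the counts were 0 for hippocampus (0.639%), 0 for prefrontal cortex (0.98%) and 1 for striatum (0.866%). At any fold, 2 (5.11%), 6 (8.8%) and 15 (13.8%) member probes passed in Goto-Kakizaki hippocampus, prefrontal cortex and striatum, and 0 (2.2%), 2 (2.67%) and 2 (3.25%) in the same regions of streptozotocin-treated rats. Limma called none in the Goto-Kakizaki prefrontal cortex, the streptozotocin hippocampus and the streptozotocin prefrontal cortex. There, 15, 11 and 15 member probes had an unadjusted p under 0.05. No share of all probes stands beside these counts, so an excess among members cannot be read from them. The methods' own test with the 2-fold rule called 0 in each. After adjustment that test also called 0 in the striatum of both models, where limma called 3 and 1. It thus called neither Hspa1a nor Hspb1 there. Called members were at most 3.75% of those tested in any of these comparisons. The median log2 change of the members was -0.17 in the Goto-Kakizaki striatum against 0.02 for all probes tested, and 0.05 and 0.09 in the other regions against -0.04 and 0.01.

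**Figure D1:**
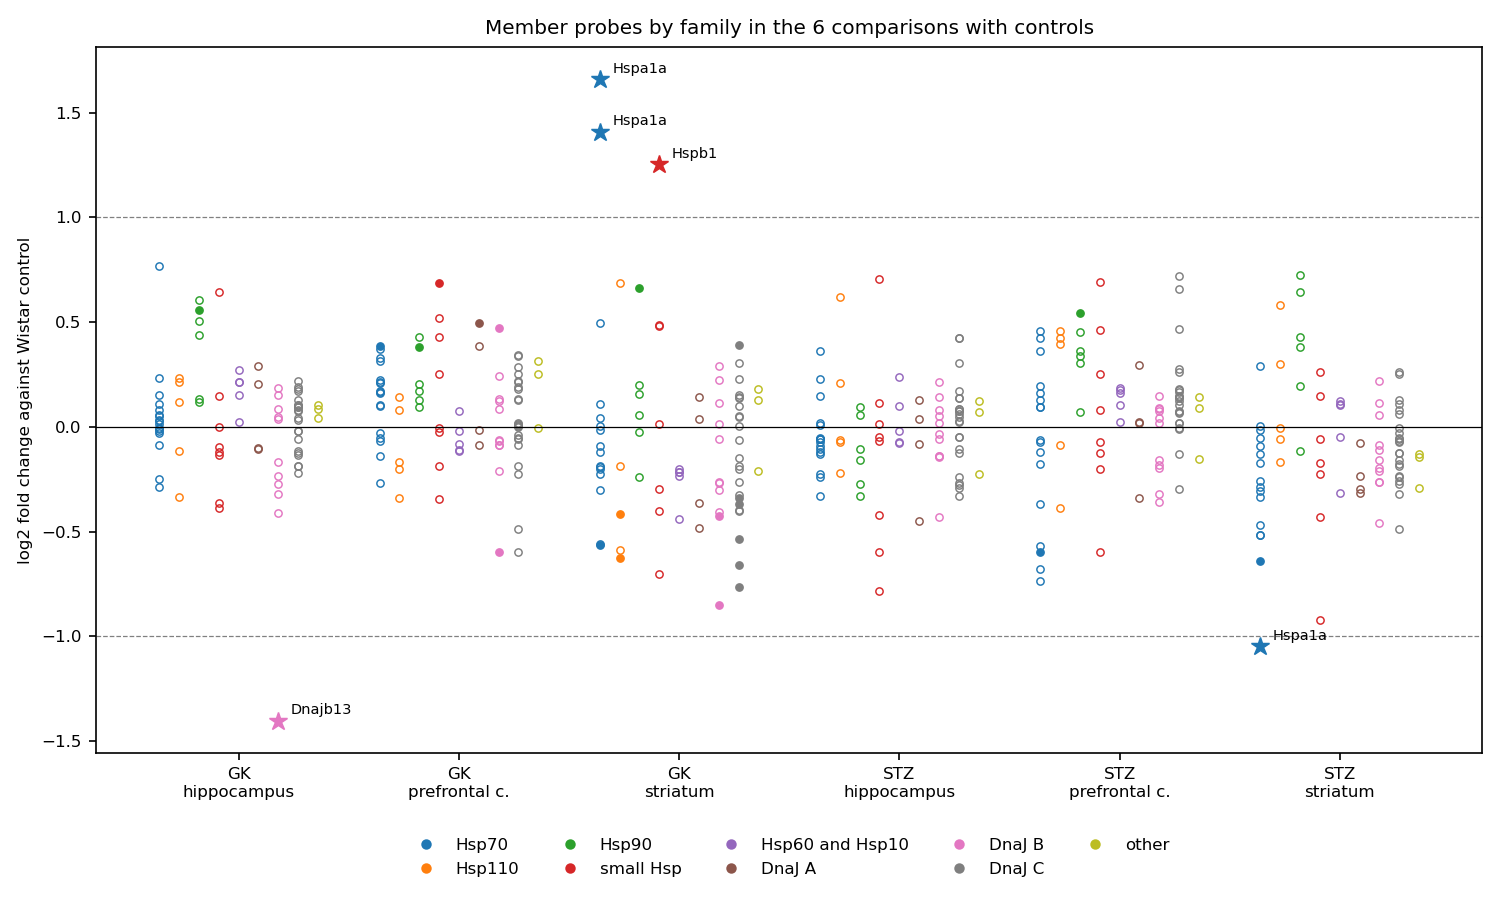
Log2 fold change against Wistar controls (y axis) of each member probe in the 6 comparisons with controls (x axis; GK, Goto-Kakizaki; STZ, streptozotocin), coloured by chaperone family. Stars are called probes (adjusted p under 0.05 and at least 2-fold, dashed lines), filled circles passed the adjusted p alone and open circles did not, and the 5 stars are Dnajb13 in the hippocampus and Hspa1a (3 points) and Hspb1 in the striatum.

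Hspa1a, the main heat-inducible Hsp70, was higher in the Goto-Kakizaki striatum. With probe A_44_P1042876, the control striatal pools lay at 0.54, 1.51 and 0.76, the Goto-Kakizaki pools at 2.25, 2.75 and 2.04, and the streptozotocin pools at -0.54, 0.31 and -0.09. The 3 groups did not overlap. The Goto-Kakizaki difference from controls was 1.41 (SE 0.25, n = 3 pools per group, 2.66-fold, limma adjusted p = 0.00071). Probe A_44_P109342 read -2.65, -3.52 and -2.91 in controls and -1.39, -0.96 and -1.74 in Goto-Kakizaki rats, a difference of 1.66 (SE 0.30, 3.16-fold, adjusted p = 0.00071), again without overlap. Slide 4 held all Goto-Kakizaki striatal arrays and 1 control array. Within it the difference was 1.80 (adjusted p = 0.0026) for the first probe and 1.28 (adjusted p = 0.13) for the second, and without Goto-Kakizaki pool 2 the values were 1.21 (adjusted p = 0.0063) and 1.46 (adjusted p = 0.0061). With normexp background correction the second probe's difference was 0.65 (adjusted p = 0.47).

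In the hippocampus and prefrontal cortex of Goto-Kakizaki rats the same probes did not pass: A_44_P1042876 differed from controls by 0.77 (adjusted p = 0.09) and 0.37 (adjusted p = 0.44), and A_44_P109342 by 0.24 (adjusted p = 0.82) and 0.22 (adjusted p = 0.75). The change was not shown to differ between regions: for A_44_P1042876, the Goto-Kakizaki effect in the prefrontal cortex minus that in the striatum was -1.04 (adjusted p = 0.24), and for A_44_P109342 it was -1.44 (adjusted p = 0.17). In streptozotocin striatum A_44_P1042876 was called lower by 2.06-fold (log2 -1.05, SE 0.25, adjusted p = 0.024), whereas A_44_P109342 read -4.10, -3.04 and -3.49 and did not pass (-0.52, adjusted p = 0.36). The call of the first probe was lost without control pool 2 (-0.76, adjusted p = 0.11), without streptozotocin pool 1 (-0.83, adjusted p = 0.14) and without streptozotocin pool 3 (-1.05, adjusted p = 0.083).

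Hspb1, the small heat shock protein Hsp27, known from glia and vessels under stress, was the member called between the models in all 3 regions. Control hippocampal pools lay at 0.59, 0.15 and 0.59, Goto-Kakizaki pools at 1.39, 0.91 and 0.96, and streptozotocin pools at -0.59, -0.01 and -0.42. In the prefrontal cortex the levels were 0.75, 0.42 and 0.54 in controls, 1.26, 1.28 and 1.24 for Goto-Kakizaki, and -0.07, -0.16 and 0.15 after streptozotocin. In the striatum they were 0.92, 0.45 and 0.39, then 1.61, 2.33 and 1.60, and then -0.11, 0.12 and 0.48, so that streptozotocin and control pools overlapped there. In every region the Goto-Kakizaki pools lay above all others.

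Against controls, Goto-Kakizaki Hspb1 was higher by 1.25 in the striatum (SE 0.21, 2.38-fold, adjusted p = 0.00041) and by 0.69 in the prefrontal cortex (SE 0.21, adjusted p = 0.045), and differed by 0.65 in the hippocampus (SE 0.21, adjusted p = 0.088). Within slide 4 the striatal difference was 0.92 (adjusted p = 0.13), and without Goto-Kakizaki pool 2 it was 1.01 (adjusted p = 0.0033). Streptozotocin differences were -0.79 (adjusted p = 0.054), -0.60 (adjusted p = 0.14) and -0.43 (adjusted p = 0.29) in hippocampus, prefrontal cortex and striatum, and none passed. Goto-Kakizaki against streptozotocin, Hspb1 was called in all 3 regions, at 2.70-fold (log2 1.43, adjusted p = 0.0001), 2.44-fold (1.29, adjusted p = 0.00027) and 3.21-fold (1.68, adjusted p = 1.4e-05). These comparisons share the Goto-Kakizaki pools with those against controls. Goto-Kakizaki and streptozotocin pools of a region never shared a slide, so slide and model cannot be told apart there. With the slide as a random block, the values were 1.43, 1.29 and 1.68, and the calls stayed. The correlation fitted for that block was 0.011, so it left the fit almost unchanged and cannot separate slide from model. The mean correlation with arrays of other groups on the same slide was 0.47, 0.65 and 0.48 for slides 5, 6 and 7. These slides held the streptozotocin arrays of hippocampus and prefrontal cortex.

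Summed levels of 10 endothelial markers were 51.9, 68.4 and 52.7 in the Goto-Kakizaki striatum, 45.1, 52.5 and 44.4 in control striatum and 40.6, 38.8 and 45.3 after streptozotocin. Of the 10, 4 were higher in the Goto-Kakizaki striatum (adjusted p under 0.05), 1 of them by at least 2-fold. Summed microglial markers were 110, 153 and 104 there against 82.1 to 93.5 in controls. Summed levels of 5 measured blood markers (of 8 listed) were 3.85, 7.60 and 5.09 there against 2.03 to 2.49 in controls, and all 5 passed the adjusted p, 4 of them as called; the defining markers Hbb and Alas2 were well above background. The part of these cells in the Hspb1 and Hspa1a differences was not tested. The blood sums were 2.52 to 3.61 in Goto-Kakizaki and 1.86 to 1.93 in control hippocampus, and 3.12 to 5.82 and 2.62 to 3.47 in prefrontal cortex. In the hippocampus, where Hspb1 differed by 0.65, the endothelial sums were 30.9 to 32.1 in Goto-Kakizaki and 28.6 to 30.9 in control pools.

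**Figure D2:**
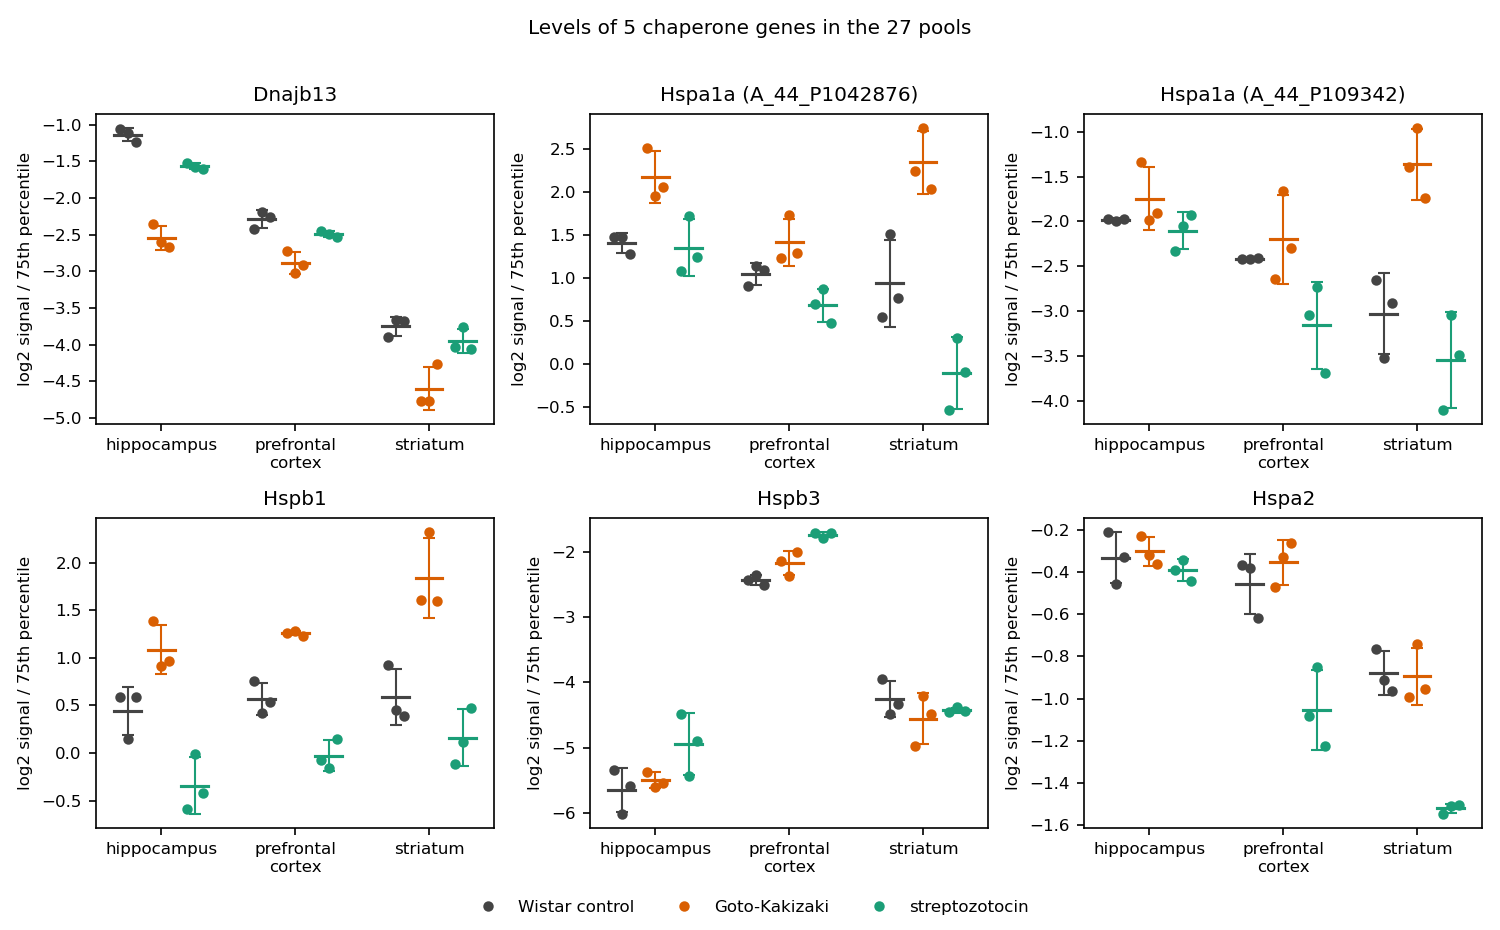
Level of 5 chaperone genes (6 probes, 1 panel each) in the 27 pools; the y axis is log2 of the signal over the array's 75th percentile, points are pools, and bars show the mean and SD of 3 pools per group. Goto-Kakizaki pools lie highest for Hspb1 in every region and lowest for Dnajb13 in every region, and streptozotocin pools lie lowest for Hspa2 in the prefrontal cortex and striatum.

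Dnajb13, a DnaJ protein of the axoneme of motile cilia and sperm tails that the study's own gene lists name, was lower in Goto-Kakizaki rats. In the hippocampus the control pools lay at -1.06, -1.11 and -1.24, the Goto-Kakizaki pools at -2.35, -2.60 and -2.67, and the streptozotocin pools at -1.53, -1.58 and -1.60. The 3 groups did not overlap. The Goto-Kakizaki level was 37.8% of the control level (log2 -1.40, SE 0.13, adjusted p = 2.7e-07). Levels were lower by less than 2-fold in the prefrontal cortex (-2.73, -3.03 and -2.92 against -2.43, -2.19 and -2.27 in controls; -0.60, SE 0.13, adjusted p = 0.0051) and striatum (-0.85, SE 0.13, adjusted p = 0.00017), where Goto-Kakizaki pools at -4.76, -4.76 and -4.27 lay below controls at -3.90, -3.67 and -3.68. Goto-Kakizaki pool 2 was not well above background there. Streptozotocin differences of -0.43 (adjusted p = 0.092), -0.20 (adjusted p = 0.53) and -0.20 (adjusted p = 0.42) in hippocampus, prefrontal cortex and striatum did not pass.

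Slide 2 held Goto-Kakizaki pool 1 and control pools 1 and 3 of the hippocampus. Within it Dnajb13 differed by -1.20, a value that rests on a single Goto-Kakizaki pool. With normexp background correction of all arrays, Dnajb13 differed by -1.21 (adjusted p = 0.30). The Goto-Kakizaki effect in the hippocampus minus that in the prefrontal cortex was -0.80 (adjusted p = 0.063). Of 12 markers of ependyma and motile cilia, 10 were measured, and Pifo and Hydin were not. Foxj1 was well above background in all these pools, and Spag6 in none of the hippocampal ones. Their summed level moved the other way, 12.0 to 13.3 in Goto-Kakizaki and 8.65 to 10.6 in control hippocampus, where 9 of 9 tested markers lay above 0 and 1 passed the adjusted p. Choroid plexus sums were uneven, at 175, 22.9 and 120 in Goto-Kakizaki and 3.23, 3.5 and 138 in control hippocampal pools, while Dnajb13 levels did not overlap between these groups. The part of these cells in the Dnajb13 difference was not tested.

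Hspa2, an Hsp70 of testis that is also expressed in brain, was lower after streptozotocin. In the prefrontal cortex the control pools lay at -0.37, -0.38 and -0.62, Goto-Kakizaki pools at -0.47, -0.33 and -0.26, and streptozotocin pools at -1.09, -0.85 and -1.23. In the striatum the levels were -0.76, -0.91 and -0.96 in controls, -0.99, -0.74 and -0.96 in Goto-Kakizaki rats, and -1.55, -1.51 and -1.51 after streptozotocin. The streptozotocin pools lay below all others in both regions. The differences from controls were -0.60 (SE 0.11, adjusted p = 0.0046) and -0.64 (SE 0.11, adjusted p = 0.0019), both under 2-fold, and -0.06 (adjusted p = 0.89) in the hippocampus. With the region fitted alone, the adjusted p rose to 0.087 and 0.22. Summed oligodendrocyte markers were 109 to 116 in streptozotocin and 133 to 166 in control prefrontal cortex, and 354 to 388 against 414 to 438 in striatum. They were also below controls in Goto-Kakizaki rats (98.9 to 121 and 349 to 409), where Hspa2 differed by 0.10 and -0.02, and their part in the Hspa2 differences was not tested.

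The Hsp90 genes, which encode the cytosolic Hsp90, are Hsp90aa1 and Hsp90ab1. The Hsp90ab1 probe A_44_P287194 lay at 5.68, 5.92 and 6.00 in control and at 6.43, 6.38 and 6.47 in Goto-Kakizaki hippocampus, without overlap (0.56, SE 0.15, adjusted p = 0.031). It was also higher in the Goto-Kakizaki striatum (0.66, adjusted p = 0.0054). The other Hsp90ab1 probe, A_44_P116130, differed by 0.16 in the striatum (adjusted p = 0.37) and passed in the prefrontal cortex (0.38, adjusted p = 0.029). All 6 Hsp90 probes lay above 0 in the Goto-Kakizaki hippocampus (median 0.47), of which 1 passed. In the Goto-Kakizaki prefrontal cortex all 6 also lay above 0 (median 0.19), and in the Goto-Kakizaki striatum 4 above and 2 below (median 0.11). In the streptozotocin hippocampus 2 lay above and 4 below (median -0.13). In the streptozotocin prefrontal cortex all 6 lay above 0 (median 0.35), and in the streptozotocin striatum 5 above and 1 below (median 0.41). After streptozotocin the Hsp90aa1 probe A_44_P261874 was higher in the prefrontal cortex (0.54, SE 0.15, adjusted p = 0.048). Control and streptozotocin pools of equal number shared slides there, and with the replicate number as a block the adjusted p was 0.066. The Hsp90aa1 probe A_44_P299870 differed by 0.64 in the streptozotocin striatum (adjusted p = 0.078).

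Several chaperones that are active in most cells passed in no comparison with controls. Hspa8, the constitutive cytosolic Hsp70, ranged from -0.33 to 0.33 over 4 probes and 6 comparisons, and none passed. Hspa5 (BiP), the Hsp70 of the endoplasmic reticulum, ranged from -0.30 to -0.01, and Dnajc3, its co-chaperone, from -0.19 to 0.09. Hspd1 (Hsp60) ranged from -0.44 to 0.27 over 4 probes, Hspe1 (Hsp10) from -0.31 to 0.24, Dnaja1 from -0.48 to 0.29, Hspb8 from -0.19 to 0.11 and Dnajc5, the cysteine string protein of synaptic vesicles, from -0.49 to 0.23. None of these passed the adjusted p in any of the 6 comparisons. Among inducible partners, Dnajb1, which works with Hspa1a, was higher in the Goto-Kakizaki prefrontal cortex (0.47, adjusted p = 0.017), where controls read 2.27, 2.25 and 2.24 and Goto-Kakizaki pools 2.60, 2.74 and 2.84. Dnaja4 (0.50, adjusted p = 0.023) and Hspa12a (probe A_44_P256786, 0.38, adjusted p = 0.022) were higher there too. The Dnajb1 values are those of probe A_44_P309780. The other probes of Dnajb1 and Hspa12a did not pass there. Of the 6 probes that passed in this region, 1 remained without Goto-Kakizaki pool 2, 1 without Goto-Kakizaki pool 3, 1 without control pool 2 and 2 without control pool 3. Not past the threshold, but among the smallest p of their comparisons, were Hspb6 (-0.60, adjusted p = 0.061) and Dnaja2 (-0.45, adjusted p = 0.076) in the streptozotocin hippocampus and Dnajc9 (0.72, adjusted p = 0.064) in the streptozotocin prefrontal cortex.

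In the Goto-Kakizaki striatum 5 member probes were higher and 10 lower at any fold. Lower were Dnajb13, both Dnajc9 probes (-0.77 and -0.66; a histone co-chaperone), Hspa9 (-0.56, the mitochondrial Hsp70), Hspa4l (-0.63) and Hsph1 (-0.41) of the Hsp110 family, Dnajb6 (-0.43), Dnajc6 (-0.53), Dnajc10 (-0.37) and Dnajc18 (-0.34). Hspa1a (both probes), Hspb1, Hsp90ab1 and Dnajc14 (0.39) were higher. Probes of a gene disagreed: the other Hspa9 probe differed by 0.11 and the other Hspa4l probe by -0.19. The other Dnajb6 probe differed by 0.11, the other Dnajc10 probe by -0.15 and the other Dnajc6 probes by -0.40, 0.00 and 0.10. None of these other probes passed. Pool 2 lay low for many constitutive members, with Dnaja1 at 3.74 against 5.00 and 4.62 in the other Goto-Kakizaki pools and 4.90 to 4.99 in controls. Without it, 8 member probes passed, of which 6 were among the 15. Without control pool 2, 8 passed, 6 of them shared. Within slide 4, 1 passed, and with the region fitted alone 2 passed.

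**Figure D3:**
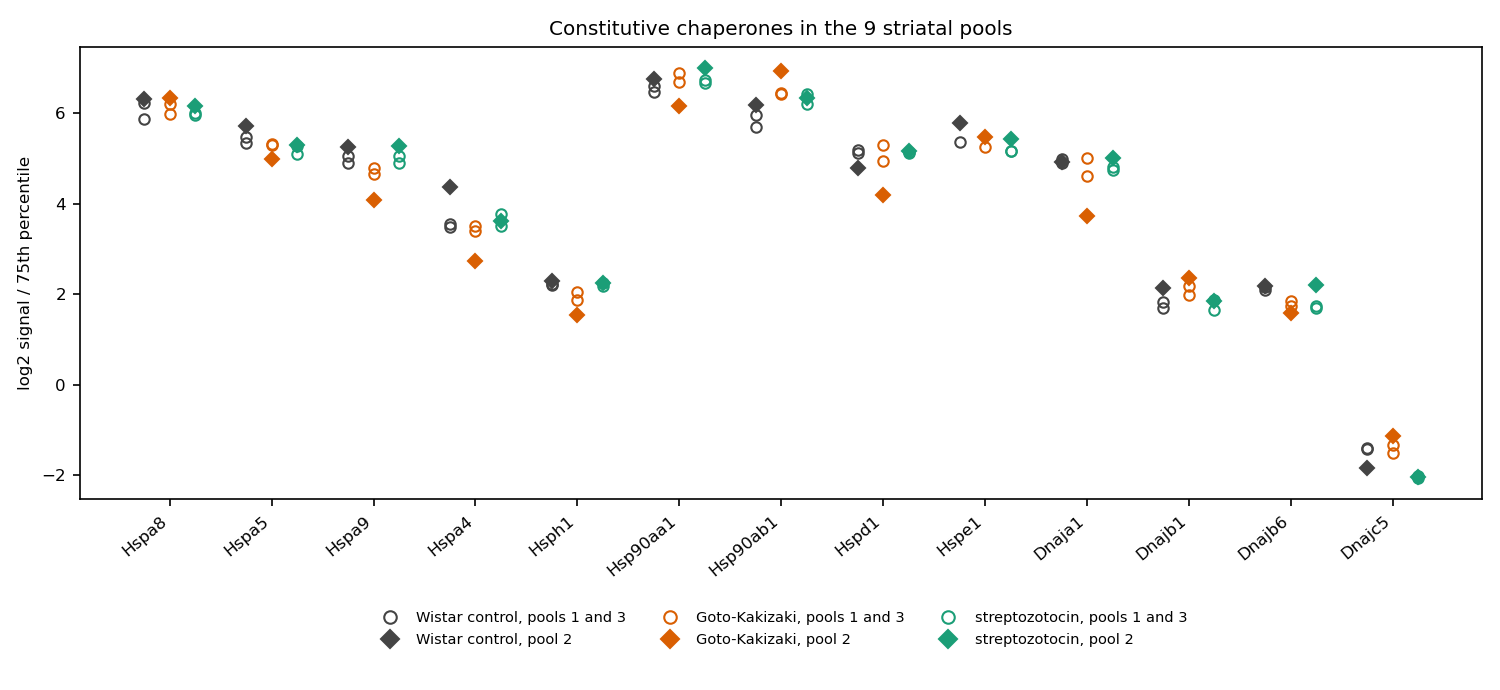
Level (y axis, log2 of the signal over the array's 75th percentile) of 13 chaperones (x axis), each by its probe with the highest mean, in the 9 striatal pools; diamonds are pool 2 of each group and circles pools 1 and 3. Goto-Kakizaki pool 2 lies below the other pools for Dnaja1 (3.74), Hspd1 (4.19), Hspa4 (2.74) and Hspa9 (4.09), but not for Hspa8 or Hsp90ab1.

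Comparing the models directly, 1 of 82 member probes was called in hippocampus (2.76% of all probes), 3 of 82 in prefrontal cortex (3.53%) and 4 of 80 in striatum (4.94%). At any fold the counts were 8 (8.7%), 16 (15.8%) and 15 (16.1%). Besides Hspb1, both probes of Dnajc9 were called lower in Goto-Kakizaki prefrontal cortex (-1.32, adjusted p = 0.00017, and -1.15, adjusted p = 0.00046). Without Goto-Kakizaki pool 1 the second value was -0.87 (adjusted p = 0.0026), under 2-fold. With A_44_P303393 the Goto-Kakizaki pools lay at 1.29, 1.86 and 2.26, the streptozotocin pools at 3.07, 3.17 and 3.13, and the controls at 2.26, 2.31 and 2.63. Both Hspa1a probes were called higher in the Goto-Kakizaki striatum, at 5.48-fold (log2 2.46, adjusted p = 8.9e-07) and 4.52-fold (2.18, adjusted p = 3.8e-05). Hspb9, a small heat shock protein known from testis, was called there as well (1.41, SE 0.31, adjusted p = 0.0048), with Goto-Kakizaki pools at -3.85, -3.63 and -4.12 and streptozotocin pools at -5.53, -5.02 and -5.26, of which 1 was well above background. With normexp its difference was 0.65 (adjusted p = 0.68). Hspa2 was higher in Goto-Kakizaki than in streptozotocin prefrontal cortex (0.70, adjusted p = 0.00015) and striatum (0.63, adjusted p = 0.00057), under 2-fold.

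Regions of control brains were compared next. Of 82 member probes, 4 were called between striatum and hippocampus (8.98% of all probes), 2 between prefrontal cortex and hippocampus (5.16%) and 2 between striatum and prefrontal cortex (8.8%). At any fold the counts were 17 (29.9%), 8 (16%) and 23 (25.4%). Hspb3, a small heat shock protein known from muscle, was highest in the prefrontal cortex at -2.43, -2.36 and -2.50, against -3.95, -4.49 and -4.34 in the striatum and -5.34, -6.01 and -5.59 in the hippocampus. No regions overlapped. The prefrontal cortex exceeded the hippocampus by 9.3-fold (log2 3.22, SE 0.21, adjusted p = 9e-10; with normexp 1.76, adjusted p = 0.0065), and 2 of 3 control arrays of the hippocampus were well above background. The striatum exceeded the hippocampus by 1.39 (adjusted p = 3e-05) and lay below the prefrontal cortex (log2 -1.83, adjusted p = 9e-07; with normexp -0.34, adjusted p = 0.51). In the streptozotocin prefrontal cortex Hspb3 read -1.71, -1.78 and -1.72, above all controls, without passing (0.69, adjusted p = 0.083).

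Dnajb13 fell in the order hippocampus, prefrontal cortex and striatum. The prefrontal cortex differed from the hippocampus by -1.16 (adjusted p = 1.4e-06), the striatum by -2.61 (adjusted p = 4.1e-12) and the striatum from the prefrontal cortex by -1.46 (adjusted p = 2.8e-08). With normexp none of the 3 passed, at -1.04 (adjusted p = 0.20), -1.20 (adjusted p = 0.057) and -0.16 (adjusted p = 0.79), while that setting raised the median of all probes by 0.38 in the last. The Hspa1a probe A_44_P109342 was called lower in striatum than in hippocampus (-1.04, adjusted p = 0.01), and this was lost without control striatal pool 2 (-0.80, adjusted p = 0.065) and with normexp (-0.04, adjusted p = 0.94).

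Dnajc6 (auxilin) was lower in the striatum by each of its 4 probes. A_44_P905187 read 1.22, 1.41 and 1.09 in hippocampal pools, 0.96, 0.75 and 0.74 in prefrontal pools and -0.13, 0.40 and -0.04 in striatal pools, with no overlap of the striatum with the others. It was called against the hippocampus (-1.17, SE 0.15, adjusted p = 5.4e-06). The other probes differed by -0.60, -0.78 and -0.56 from the hippocampus, and all 4 by -0.93 to -0.75 from the prefrontal cortex, each past the adjusted p. With normexp 2 of the 4 turned direction against the hippocampus (A_43_P10082 and A_44_P520725) and A_43_P10082 also against the prefrontal cortex. Of 15 partner genes of the synaptic vesicle DnaJ cycle, 6 were called lower in striatum than in hippocampus and none higher (8.98% of all probes called). They were Syn1 (-1.70, which ties vesicles to actin), Sh3gl2 (-1.46) and Amph (-1.26), which bend the membrane, Dnm1 (-1.44, which cuts vesicles off), Stx1a (-1.35, the fusion protein) and Synj1 (-1.08, which frees coats). Against the prefrontal cortex 5 were called lower (8.8% of all probes called). Stx1a was also called higher in prefrontal cortex than in hippocampus (1.49, limma adjusted p = 0.00011). Of 10 general neuron markers, 7 were lower in striatum than in hippocampus (adjusted p under 0.05; median -0.79), and their part in these differences was not tested.

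**Figure D4:**
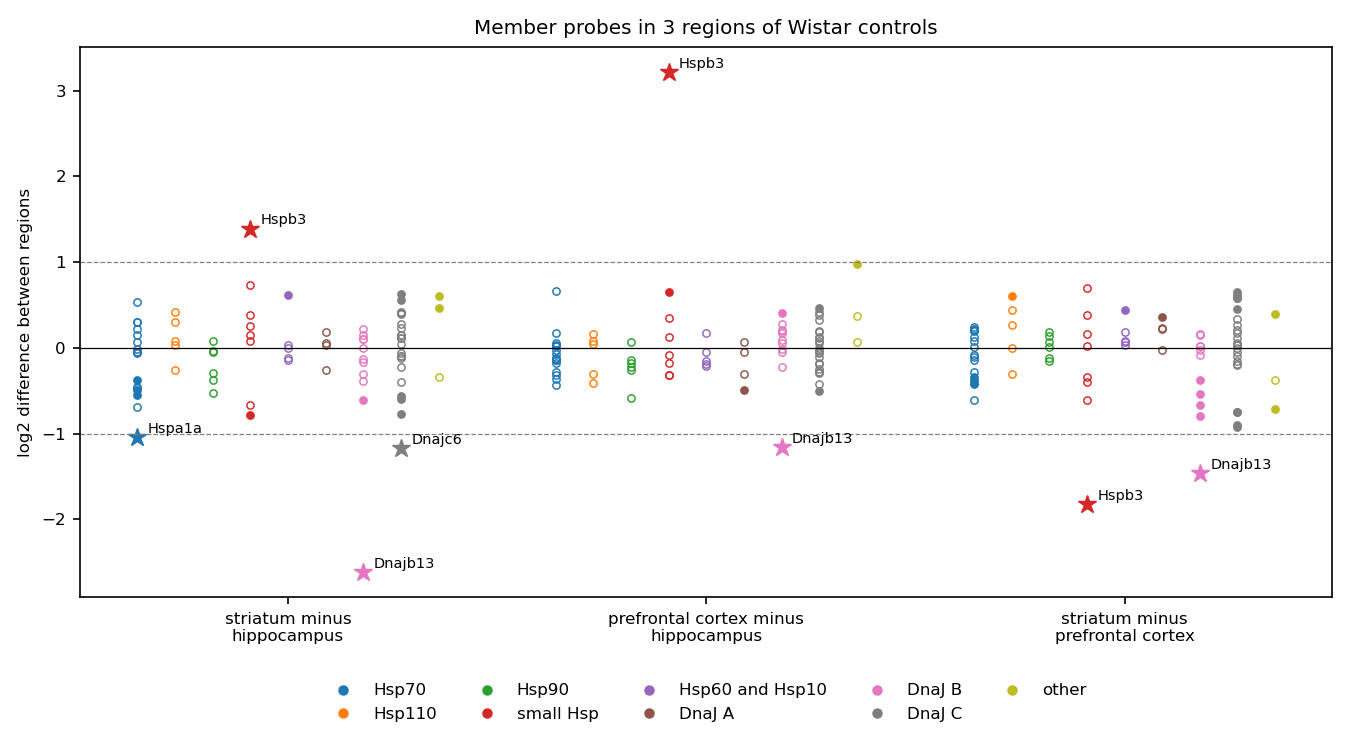
Log2 difference between regions of control brains (y axis) for each member probe in 3 comparisons (x axis), coloured by family; stars are called probes, filled circles passed the adjusted p alone and dashed lines mark a 2-fold change. Hspb3 and Dnajb13 stand farthest from 0, up to 3.22 and down to -2.61.

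The wider chaperone pathways gave no called gene against controls in either model. Their lists were 28 genes of heat shock factor 1 and cytosolic co-chaperones, 30 of endoplasmic reticulum chaperones and the unfolded protein response, 16 of the CCT chaperonin and prefoldin, 16 mitochondrial partners and proteases, and the 15 synaptic partners. At any fold in the Goto-Kakizaki striatum, 1 of 25 tested genes of the first list was higher and 3 lower, 0 and 1 of 25 of the second, 0 and 0 of 13 of the third, 1 and 0 of 12 of the fourth, and 0 and 4 of 15 of the fifth. Of all probes, 13.8% passed there. In the Goto-Kakizaki hippocampus (5.11% of all probes) 1 gene passed, an increase in the second list. In the prefrontal cortex (8.8%) 2, 2, 1, 0 and 3 genes of the 5 lists were higher and none lower. After streptozotocin, 3 of 25 endoplasmic reticulum genes were lower in the striatum and 1 in the prefrontal cortex, with none higher. In each of hippocampus and prefrontal cortex 1 chaperonin gene was higher, and 1 synaptic partner was lower in the hippocampus. The shares of all probes after streptozotocin were 2.2% in hippocampus, 2.67% in prefrontal cortex and 3.25% in striatum. Between the models, Pdia4, a disulfide isomerase of the endoplasmic reticulum, was higher in Goto-Kakizaki prefrontal cortex (1.23, adjusted p = 9.8e-06), as was Syn1 (1.03, adjusted p = 0.00036). Between regions, Tomm70, the mitochondrial import receptor for Hsp70 and Hsp90 clients, was higher in striatum than in hippocampus (1.56) and prefrontal cortex (1.77), Cryab, the small heat shock protein of oligodendrocytes and astrocytes, was higher than in the prefrontal cortex (1.78), and Ero1a, an oxidase of disulfide formation, was higher than in the hippocampus (1.27). Summed oligodendrocyte markers were 414 to 438 in control striatum and 133 to 166 in control prefrontal cortex, and their part in the Cryab difference was not tested.

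Whether the Goto-Kakizaki effect differed between regions was tested directly. No member was called between hippocampus and striatum (0.363% of all probes), hippocampus and prefrontal cortex (0.186%) or prefrontal cortex and striatum (0.127%). At any fold limma gave 1 (0.726%), 0 (0.304%) and 0 (0.165%) member probes. An unadjusted p under 0.05 was found for 19, 7 and 10, without a share of all probes to set beside these counts. The 1 probe past the adjusted p was A_42_P536403 of Dnajc6, which kept it in 5 of 22 alternative settings. Its levels were 4.62, 4.69 and 4.49 in control and 4.77, 4.74 and 4.85 in Goto-Kakizaki hippocampus, and 3.92, 4.10 and 3.98 in control and 3.65, 3.19 and 3.56 in Goto-Kakizaki striatum. Of the pathway lists, the synaptic partner Syn1 was called for hippocampus minus prefrontal cortex (-1.35, SE 0.25, limma adjusted p = 0.025). Slide and group cannot be told apart in that difference.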

How the data were processed

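RNA of 27 pools was labelled with a single dye and hybridised to rat Agilent arrays by the authors, who extracted spots with Feature Extraction 9.1. The deposited processed signal is a background-corrected intensity, not scaled between arrays, and raw mean and background intensities were deposited too. Each deposited intensity was divided by its array's 75th percentile (690 to 1527) and taken to log2, leaving out outlier spots (15 member values). With limma 3.58.1 (R 4.3.3, data.table, version 1.17.8), a linear model of 9 group means with 18 residual degrees of freedom was fitted to 32078 probes that passed background, with Benjamini-Hochberg adjustment per comparison. Python 3.11.15, numpy 2.4.6, pandas 2.3.3 and matplotlib 3.10.9 read files and drew figures. The number of arrays limits the precision. Probes were updated through the GRCr8 RefSeq gene list, and all 84 member probes matched. On data simulated for Goto-Kakizaki against control hippocampus over 32078 probes, 66% of log2 changes of 1 and 88% of 2 reached an adjusted p under 0.05. These shares do not apply the 2-fold rule, and the simulated arrays were independent, without slide effects. Members and lists were chosen with earlier results of these data known. Named were called members (at most 10 per comparison), well-known chaperones by the probe with the highest mean, Dnajb13, the 3 smallest p per comparison with controls and called pathway genes. Others are named as examples after their values were seen.

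Samples were grouped by their labels. Alternatives were other percentiles, quantile normalization, normexp with an offset of 50, the value table, other filters, regions or groups alone, the methods' Welch test, no fold threshold, replicate and slide blocks, and leaving out pools. Counts at any fold under each of these were chosen after seeing the data. Replicate numbers were checked by the correlation of deviations from group means and were taken as paired only for streptozotocin and control prefrontal cortex (0.49, 0.47 and 0.72), where they share slides. The main fit left this pairing out for that comparison too, and the replicate number entered only as an alternative block. The fit takes pools as independent, though regions share animals.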

Additional observations from a re-analysis of the deposited data

Results flagged for a closer look

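The effect of the Goto-Kakizaki strain on the auxilin gene Dnajc6 (probe A_42_P536403) differed between hippocampus and striatum by 0.72 on the log2 scale (limma interaction, adjusted p = 0.04). The gene lay higher in all 3 Goto-Kakizaki than in all 3 control pools of the hippocampus and lower in all 3 of the striatum. An adjusted p under 0.05 was kept in only 5 of 22 alternative settings. Without Goto-Kakizaki striatal pool 2 the difference was 0.58 (adjusted p = 0.066), with the slide as a block 0.66 (adjusted p = 0.59) and with the replicate number as a block 0.72 (adjusted p = 0.051). The other 3 Dnajc6 probes differed from controls by -0.40, 0.00 and 0.10 in the Goto-Kakizaki striatum.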

How the results depend on the processing

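The count of called members changed by more than 1.5 times as follows. With normexp background correction it was 0 for Goto-Kakizaki against control hippocampus, 0 for streptozotocin against control striatum, 1 for prefrontal cortex against hippocampus and 1 for striatum against prefrontal cortex. With no fold threshold the counts were 2, 6 and 15 for Goto-Kakizaki against control hippocampus, prefrontal cortex and striatum, 2 and 2 for streptozotocin against control prefrontal cortex and striatum, 8, 16 and 15 between the models, 17, 8 and 23 between regions and 1 for the Goto-Kakizaki effect between hippocampus and striatum. With the 2 groups alone, or with the methods' Welch test after adjustment, 0 were called for Goto-Kakizaki against control striatum and 0 for streptozotocin against control striatum, and the latter was also 0 with the region alone and with the unadjusted Welch test. The adjusted Welch test gave 0, 0 and 0 between the models in the 3 regions and 1, 1 and 1 between regions. For Goto-Kakizaki against control striatum the count was 1 within slide 4 and 1 with the slide as a block, and for striatum against prefrontal cortex it was 5 within slide 5. Leaving out 1 pool gave 3 to 4 for Goto-Kakizaki against control striatum, 0 to 1 for streptozotocin against control striatum (0 without control pool 2, streptozotocin pool 1 or pool 3), 1 to 2, 3 to 4 and 4 to 6 between the models in hippocampus, prefrontal cortex and striatum, 2 to 3 for prefrontal cortex against hippocampus and 0 to 2 for the Goto-Kakizaki effect between hippocampus and striatum (2 without Goto-Kakizaki striatal pool 1, 1 without control striatal pool 1), and no other comparison moved. The causes were not tested.

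Replicate numbers were taken as paired only for streptozotocin against control prefrontal cortex, and the fit with the replicate number as a block called 1, 0 and 3 members for Goto-Kakizaki against controls, 0, 0 and 1 for streptozotocin, 1, 3 and 4 between the models, 4, 2 and 2 between regions and 0 for each difference of effects, as without it. At any fold, 1 in place of 2 members passed in the streptozotocin prefrontal cortex with this block. In control striatum against prefrontal cortex, where pools 2 and 3 shared slides, the correlations of equal numbers were -0.18, 0.55 and 0.60. The block gave 20 in place of 15 members at any fold for Goto-Kakizaki against control striatum and 3 in place of 8 between the models in the hippocampus. Over all settings the counts at any fold lay at 0 to 11, 0 to 11 and 0 to 22 for Goto-Kakizaki against controls and 0 to 4, 0 to 3 and 0 to 3 for streptozotocin. Of the called values named in the text, none reversed, 221 of 260 alternatives and 121 of 126 fits without 1 pool kept the call, and the rest lost it. The 50th percentile in place of the 75th shifted the median of all probes by 0.10 for Goto-Kakizaki against control hippocampus, and normexp by -0.28 for Goto-Kakizaki against control striatum, -0.25 for streptozotocin against control striatum and 0.35 for striatum against hippocampus. Dim members such as Hspb3, Hspb9 and Dnajb13 in the striatum lie near background, which limits their values.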
